A study of Mus musculus with 8 samples.

Results

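The exchangers that carry bicarbonate, protons, calcium and other anions across membranes were examined in brain, kidney and liver of male mice given lead acetate in their drinking water. The set held every non-control probe whose gene name in the array files was a numbered member of Slc4a, Slc8a, Slc9a, Slc9b, Slc24a or Slc26a, leaving out Slc4a1 and Slc4a5. These were 85 probes for 38 genes, of 56605 probes and 37320 genes on the array, and the choice rested on names alone. Each of the 8 arrays held 1 sample. Brain and kidney were each sampled from a control group on distilled water, a low-dose group on lead acetate at 100 mg/L and a high-dose group at 1000 mg/L, with lead given for 3 weeks. Liver was sampled from the control and the high-dose group, and no low-dose liver was analysed here. The labels name neither a strain, an age nor the number of animals behind a sample, and the RNA came from pieces of each organ.

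The Slc4 proteins move bicarbonate, alone with sodium or in exchange for chloride, and the Slc9 proteins trade sodium for protons at the cell surface or in organelles. The Slc8 and Slc24 proteins use the sodium gradient to carry calcium out of cells, the latter together with potassium, and Slc26 proteins exchange chloride, bicarbonate, sulfate, iodide or oxalate. In the kidney tubule such exchangers reclaim bicarbonate and sodium from the filtrate, and in neurons they clear calcium and acid after activity.

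Values are log2 levels, with 0 at the 75th percentile of each array's signal, and a gene was read through its probe with the highest mean level. Differences between tissues and doses were taken within a probe, between arrays. Levels of different probes were ranked only to choose a gene's probe and the members named in full. They were added up only for the summed levels of marker lists. Between 53.4% and 67.1% of spots per array exceeded background clearly, fewest in liver, and all arrays lay on 1 slide. The tissue labels fitted the defining markers. All 8 neuron markers were lower in kidney than in brain, all 12 proximal tubule markers were higher in kidney than in either other tissue, and all 12 hepatocyte markers were lower in kidney and in brain than in liver (limma, adjusted p under 0.05 and a difference of at least 1).

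Probe sequences that cross exon junctions are shown first, from 60-base probes that match genome stretches longer than themselves. None is the probe through which its gene was read, so they do not place the main levels on spliced transcripts. They belong to Slc4a10, measured in brain alone, to Slc9a3, measured in kidney alone, and to Slc4a11 and Slc9a8, whose kidney levels are compared between doses over more than 1 probe. In mm9 coordinates the Slc4a10 probe spans 625 bases at chr2:62105621-62106245 on the plus strand. The Slc9a3 probe spans 607 bases at chr13:74300566-74301172 on the plus strand. The Slc4a11 probe spans 261 bases at chr2:130512655-130512915 on the minus strand. The Slc9a8 probe spans 1891 bases at chr2:167297049-167298939 on the plus strand. No base is singled out, so all are in lower case.
Slc4a10: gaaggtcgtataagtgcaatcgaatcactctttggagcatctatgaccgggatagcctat
Slc9a3: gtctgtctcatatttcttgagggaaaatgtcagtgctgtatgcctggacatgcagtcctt
Slc4a11: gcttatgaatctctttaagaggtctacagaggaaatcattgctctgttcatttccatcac
Slc9a8: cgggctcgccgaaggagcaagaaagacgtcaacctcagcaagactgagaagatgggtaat

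Most exchangers had a tissue in which they were measured. The reported probe was well above background on every array of all 3 tissues for 19 of the 38 genes. It was so in brain and kidney but not liver for 5 (Slc4a11, Slc8a1, Slc9a2, Slc9a7 and Slc24a5), in brain alone for 5 (Slc4a10, Slc8a2, Slc9b2, Slc24a2 and Slc24a4) and in kidney alone for 2 (Slc9a3 and Slc26a7). Brain had 76.3% of the members against 60.5% of all genes, kidney 68.4% against 55.6%, and liver 50.0% against 51.4%. By their reported probes, the remaining 7 members were well above background throughout no tissue. Of these, Slc24a1 of photoreceptors, Slc26a3 of the gut, Slc26a5, the motor protein of outer hair cells, and Slc26a9 of the airway and stomach were not well above background on any array. The other 3, Slc9a4, Slc9b1 and Slc26a8, were so on 2 to 4 arrays. A second Slc26a8 probe was well above background on every brain array and on no kidney or liver array, at least 1.70-fold above the kidney bound.

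**Figure D1:**
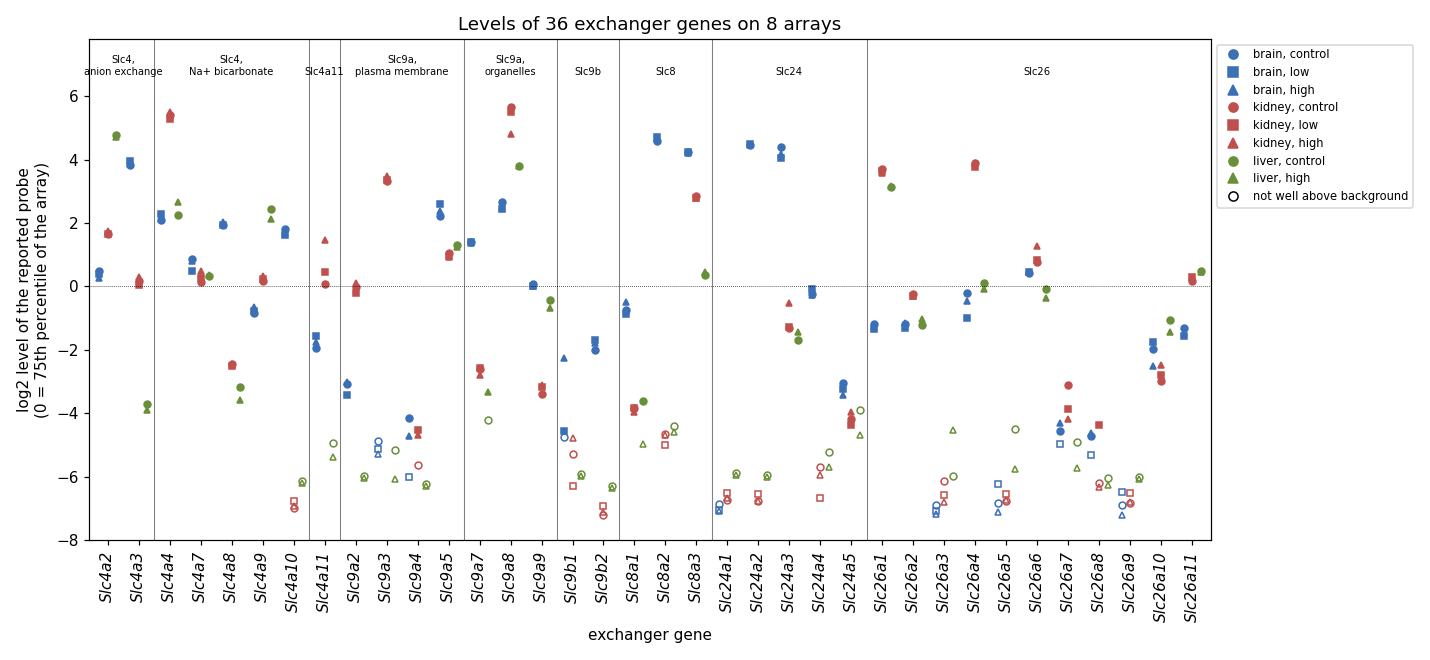
Each point is the log2 level of a gene's reported probe on 1 array (vertical axis, 0 at the array's 75th percentile), for 36 exchanger genes grouped by family and role (horizontal axis). Colour gives the tissue, shape the dose, and hollow points are not well above background. The points of a gene lie close together within a tissue and far apart between tissues for many genes, and Slc4a11 and Slc9a8 show spread among the kidney arrays.

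Levels within a tissue differed little between doses beside the differences between tissues. The median SD of a member over the arrays of 1 tissue, which differ in dose, was 0.11 in brain (n = 3), 0.12 in kidney (n = 3) and 0.13 in liver (n = 2). Tissues were tested with limma on all 8 arrays, over genes well above background on every array of at least 1 tissue. A gene entered through the tissues where it was measured, so its p-value against a tissue where it was not measured adds no support. Of the 31 members tested, 9 were higher and 14 lower in kidney than in brain, beside 24.3% and 23.3% of the 24671 genes tested (47.7% either way). Against liver, 12 were higher and 4 lower in kidney, beside 16.3% and 16% of genes (32.3% either way), and 16 were higher and 5 lower in brain, beside 26% and 30.9% of genes (56.9% either way). The members' median difference was -0.67 for kidney minus brain (all genes 0.15), 0.63 for kidney minus liver (all genes -0.20) and 1.07 for brain minus liver (all genes -0.31). Scaling arrays by their median in place of the 75th percentile moved the median of all genes to 0.44 for kidney minus brain and to -0.63 for brain minus liver. By these calls of the reported probes 13 members were highest in brain, 6 in kidney and 2 in liver, each above both other tissues. All genes were not counted in this way, so these counts do not set the members apart. Among them are Slc4a9, Slc8a1 and Slc8a3, whose probes differed in the highest tissue. In these pieces of tissue, fewer cells of a type and less RNA per cell cannot be told apart.

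**Figure D2:**
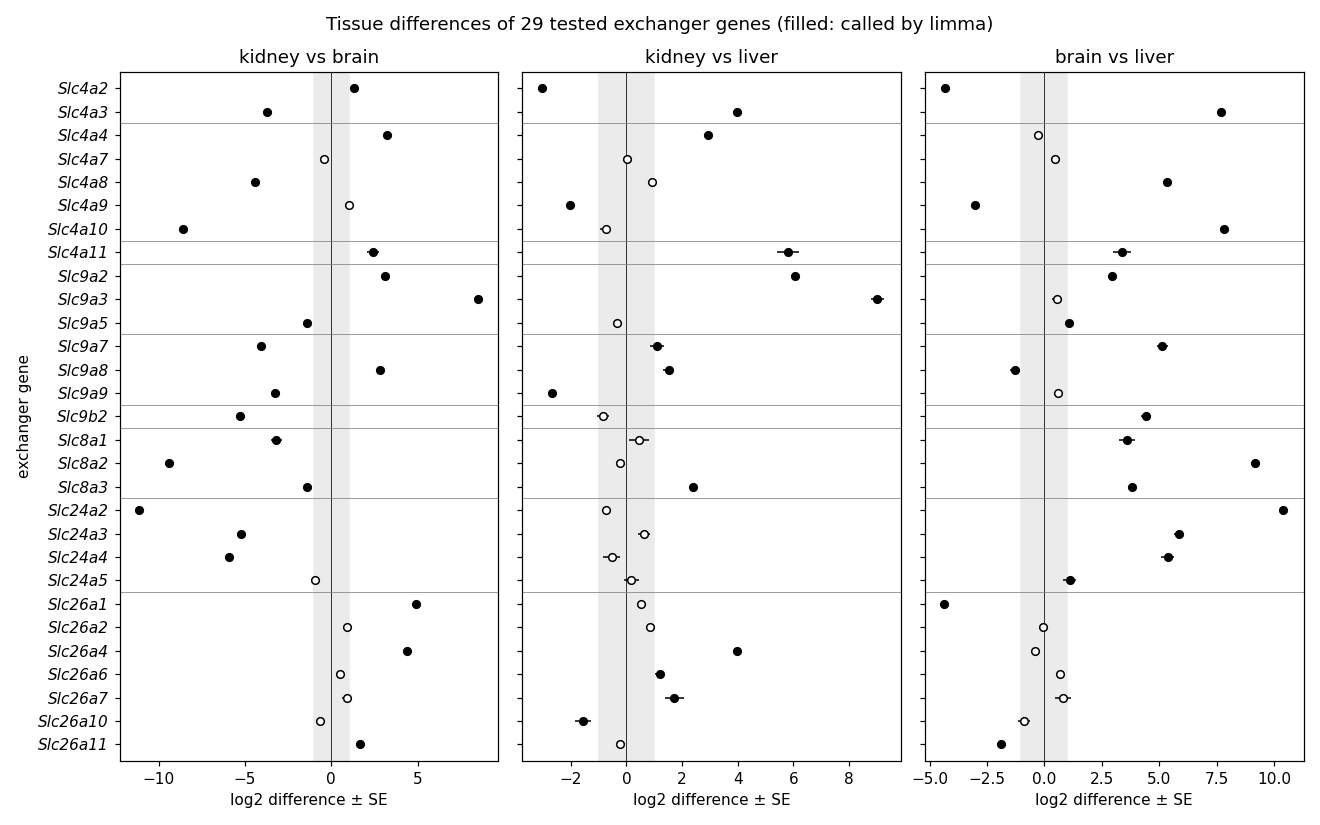
Each point is the limma estimate of a log2 difference between 2 tissues (horizontal axis, bars are SE) for 29 of the tested exchanger genes (vertical axis, in the order of the families). Filled points passed adjusted p under 0.05 and a difference of at least 1, the grey band marks smaller differences, and estimates against a tissue where a gene is not well above background depend on the background level. The Slc8 and Slc24 genes lie to the left in the kidney minus brain panel, and Slc9a2, Slc9a3, Slc26a1 and Slc26a4 lie to the right.

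The chloride-bicarbonate exchangers Slc4a2 and Slc4a3 had opposite tissue patterns. Slc4a2, the widespread anion exchanger of epithelia, measured 0.48, 0.41 and 0.27 in control, low-dose and high-dose brain. In kidney, in the same order, it measured 1.65, 1.64 and 1.76, and in control and high-dose liver 4.76 and 4.70. Slc4a3, the exchanger of brain and heart, measured 3.82, 3.96 and 3.87 in brain and 0.18, 0.03 and 0.29 in kidney, while liver gave -3.70 and -3.90. The 3 tissues did not overlap for either gene. Slc4a2 was lower in brain than in liver by -4.34 ± 0.08 (SE, adjusted p = 3.92e-08, limma), and Slc4a3 was higher in brain than in liver by 7.70 ± 0.11 (SE, adjusted p = 1.71e-08, limma).

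Among the sodium bicarbonate carriers, Slc4a4, which returns bicarbonate to the blood in the proximal tubule, was the one above both other tissues in kidney. Slc4a4 measured 2.10, 2.30 and 2.11 in brain and 5.39, 5.28 and 5.504 in kidney, while liver gave 2.24 and 2.66. Kidney stood above both other tissues, while brain and liver overlapped. The kidney exceeded brain by 3.22 ± 0.10 (SE, adjusted p = 3.38e-07, limma). Slc4a10, the sodium-driven carrier of neurons and choroid plexus, measured 1.80, 1.62 and 1.69 in brain and was not well above background on any kidney or liver array. Its brain level was at least 86.5-fold the kidney bound (measured kidney mean -6.88, adjusted p = 3.21e-08, limma) and at least 51.8-fold the liver bound (measured liver mean -6.14, adjusted p = 8.10e-08, limma). For such a bound the bright mean was set against the dim probe's own signal or the array's lowest clearly detected signal, whichever was higher. A p-value printed beside a bound, here and below, belongs to the limma estimate from measured levels, not to the bound. Such a p-value adds no support, since the gene passed the filter only through tissues where it was measured. The junction-spanning Slc4a10 probe shown above was likewise measured in brain alone, at least 10.95-fold above kidney.

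The other bicarbonate carriers were neuronal, even or split between probes. Slc4a8, a sodium-driven chloride-bicarbonate exchanger of neurons, was lower in kidney than in brain by -4.42 ± 0.12 (SE, adjusted p = 1.64e-07, limma). Of its other probes, 1 was likewise lower in kidney, by -3.00 ± 0.18 (SE, adjusted p = 6.71e-06), and the junction-spanning probe was not called, at -0.27 ± 0.35 (SE, adjusted p = 0.506), in the limma fit over all probes. Slc4a7, the electroneutral carrier, was called in no tissue contrast, with means of 0.72 ± 0.20 (SD, n = 3) in brain, 0.30 ± 0.17 (SD, n = 3) in kidney and 0.34 ± 0.01 (SD, n = 2) in liver. Slc4a9, a carrier known from intercalated cells of the collecting duct, was read differently by its 2 probes. The reported probe measured -0.84, -0.77 and -0.65 in brain and 0.19, 0.23 and 0.32 in kidney, while liver gave 2.44 and 2.13. The second probe measured 1.21, 1.14 and 1.18 in kidney and was not well above background on any brain or liver array. By the first probe kidney was below liver by -2.03 ± 0.12 (SE, adjusted p = 1.54e-05, limma). By the second, kidney was at least 76.9-fold above brain (measured brain mean -7.20) and at least 35.9-fold above liver (measured liver mean -5.10), with adjusted p = 5.10e-08 and 9.32e-07 in a limma fit over all probes. The high liver value of Slc4a9 rests on 1 of 2 probes.

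Slc4a11, known to carry protons despite its place in the bicarbonate family, was highest in kidney, with an SD of 0.73 over the arrays there (n = 3). Its reported probe measured -1.94, -1.57 and -1.75 in brain and 0.06, 0.46 and 1.48 in kidney, while liver gave -4.92 and -5.36, where it was not well above background. Kidney was above brain by 2.42 ± 0.34 (SE, adjusted p = 0.000582, limma) and at least 25.3-fold above liver (measured liver mean -5.14, adjusted p = 2.87e-05, limma).

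Among the sodium-proton exchangers of the plasma membrane, Slc9a3 and Slc9a2 were highest in kidney, and Slc9a2 was also measured in brain. Slc9a3, which reabsorbs sodium at the apical membrane of the proximal tubule, measured 3.33, 3.37 and 3.47 in kidney. It was not well above background on any brain array, at -4.85, -5.11 and -5.28, or on either liver array, at -5.16 and -6.05. Its kidney mean was at least 349.8-fold the brain bound (measured brain mean -5.08, adjusted p = 8.29e-08, limma) and at least 166.7-fold the liver bound (measured liver mean -5.61, adjusted p = 3.32e-07, limma). The junction-spanning Slc9a3 probe was at least 6.38-fold above brain. Slc9a2, an exchanger of gut and distal tubule epithelia, was higher in kidney than in brain by 3.12 ± 0.12 (SE, adjusted p = 8.40e-07, limma), and was at least 1.78-fold higher in brain than in liver (measured brain mean -3.16 and liver mean -6.01, adjusted p = 2.27e-06, limma). Its neighbour on chromosome 1, Slc9a4 of the stomach, was well above background on 4 arrays, 2 of brain and 2 of kidney.

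Slc9a5, the neuronal exchanger, was lower in kidney than in brain by -1.41 ± 0.09 (SE, adjusted p = 1.22e-05, limma).

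Of the organellar exchangers, Slc9a7 was highest in brain and Slc9a8 in kidney. Slc9a8, an exchanger of the Golgi and of apical tubule membranes, measured 2.65, 2.45 and 2.47 in brain and 5.66, 5.51 and 4.82 in kidney, while liver gave 3.78 and 3.79. Kidney was above brain by 2.81 ± 0.17 (SE, adjusted p = 6.60e-06, limma), and all 5 of its probes with signal throughout a tissue were highest in kidney. Slc9a9, a late endosomal exchanger, was lower in kidney than in brain by -3.26 ± 0.12 (SE, adjusted p = 7.04e-07, limma). Slc9a7 of the Golgi was lower in kidney than in brain by -4.04 ± 0.21 (SE, adjusted p = 3.17e-06, limma) and was measured on 1 of 2 liver arrays.

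The adjacent genes Slc9b1 and Slc9b2 on chromosome 3 were weakly measured. Slc9b2, a mitochondrial or endolysosomal sodium-proton exchanger, measured -2.001, -1.68 and -1.77 in brain. In kidney it lay at -7.19, -6.93 and -7.11 and in liver at -6.28 and -6.35, none of them well above background. Brain was at least 7.54-fold above kidney (measured kidney mean -7.08, adjusted p = 5.89e-07, limma). Slc9b1, a sperm exchanger, is described with the doses.

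The calcium exchangers were mostly highest in brain. By their reported probes, all 3 Slc8 genes were lower in kidney than in brain and higher in brain than in liver. Of the 4 tested Slc24 genes, 3 were lower in kidney than in brain and 4 were higher in brain than in liver, and none of the 4 was higher in kidney than in liver. Of all genes, 23.3% were lower in kidney than in brain, 26% higher in brain than in liver and 16.3% higher in kidney than in liver. Counts of 3 and 4 do not set these 2 families apart from such shares. The call of Slc24a5, a pigment cell exchanger, for brain against liver rested on a bound of at least 1.65-fold and a difference of 1.10 that was 0.79 with median scaling, 0.78 with quantile normalization, 0.40 with normexp and quantile normalization, and 0.74 without the high-dose liver array, each no longer called. The other extruders of calcium, the calcium pumps, were also lower in kidney than in brain for 5 of 8 tested and higher for 0, beside 23.3% and 24.3% of all genes, among them Atp2b2 of neurons at -7.998 ± 0.08 (SE, adjusted p = 6.35e-09, limma).

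Slc8a2, the neuronal sodium-calcium exchanger, measured 4.58, 4.72 and 4.66 in brain. It was not well above background in kidney, at -4.63, -4.98 and -4.68, or in liver, at -4.40 and -4.57. Brain was at least 623.2-fold above kidney (measured kidney mean -4.76, adjusted p = 1.04e-08, limma) and at least 400.8-fold above liver (measured liver mean -4.48, adjusted p = 1.89e-08, limma). Slc8a3, the exchanger of brain and skeletal muscle, measured 4.22, 4.22 and 4.20 in brain and 2.84, 2.77 and 2.80 in kidney, while liver gave 0.36 and 0.46. The order was brain, kidney, liver with no overlap, and kidney minus brain was -1.41 ± 0.05 (SE, adjusted p = 4.41e-07, limma). The second Slc8a3 probe did not follow this order, at -4.41, -3.76 and -4.07 in brain and -3.14, -3.98 and -3.50 in kidney, while liver gave -3.20 and -3.41, and passed no tissue contrast. Slc8a1, the cardiac exchanger that also serves distal tubule and neurons, gave opposite orders by probe. The reported probe was lower in kidney than in brain by -3.17 ± 0.30 (SE, adjusted p = 7.71e-05, limma), at -0.73, -0.87 and -0.49 in brain and -3.82, -3.84 and -3.95 in kidney. Another Slc8a1 probe measured -4.09, -3.89 and -3.85 in brain and -0.61, -0.95 and -0.67 in kidney, and was higher in kidney by 3.20 ± 0.66 (SE, adjusted p = 0.00365 in the limma fit over all probes). Of the 18 members with at least 2 probes measured throughout a tissue, 15 had the same highest tissue by each such probe, and Slc4a9, Slc8a1 and Slc8a3 did not.

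**Figure D3:**
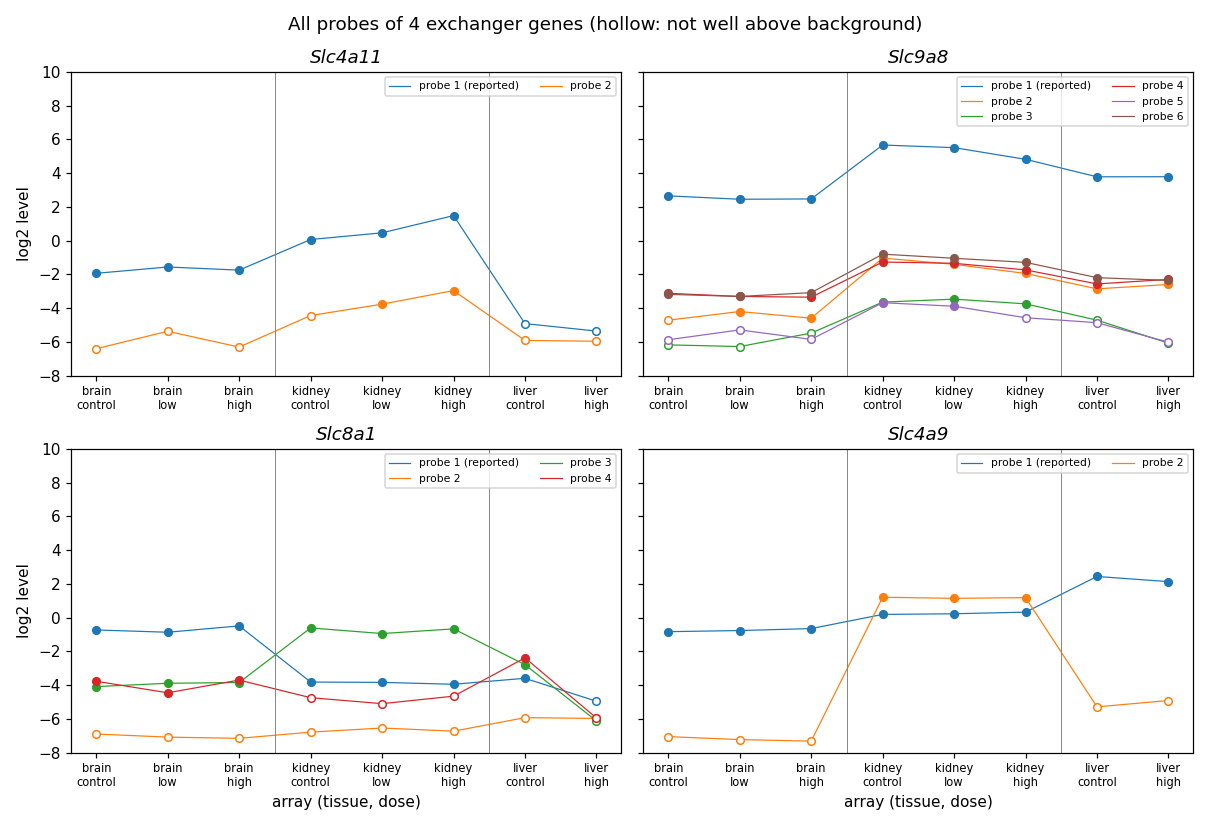
Each line is 1 probe of Slc4a11, Slc9a8, Slc8a1 or Slc4a9, with its log2 level (vertical axis) on the 8 arrays (horizontal axis), and hollow points are not well above background. Both Slc4a11 probes rise across the kidney arrays. The Slc9a8 probes measured in control and high-dose kidney are all lower at the high dose, while 1 of 6 is higher at the low dose than in control. Those of Slc8a1 and Slc4a9 cross between tissues.

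Slc24a2, the potassium-dependent calcium exchanger of cones and brain, measured 4.45, 4.48 and 4.47 in brain. It was not well above background in kidney, at -6.76, -6.54 and -6.75, or in liver, at -5.95 and -6.01. Brain was at least 586.9-fold above kidney (measured kidney mean -6.68, adjusted p = 6.11e-09, limma), and its other 2 probes with signal gave at least 38.1-fold and at least 14.4-fold. Slc24a3, a widespread exchanger of brain and smooth muscle, measured 4.38, 4.05 and 4.18 in brain and -1.30, -1.29 and -0.51 in kidney, while liver gave -1.69 and -1.43. Brain stood far above the rest, with kidney minus brain at -5.23 ± 0.17 (SE, adjusted p = 4.10e-07, limma). Slc24a4, the exchanger of olfactory neurons and enamel, was at least 23.2-fold above kidney in brain (measured brain mean -0.20 and kidney mean -6.09, adjusted p = 1.31e-06, limma).

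Of the 7 Slc26 anion exchangers tested, 3 were higher in kidney than in brain (Slc26a1, Slc26a4 and Slc26a11) and 0 lower, beside 24.3% and 23.3% of all genes. So small a count does not set the family apart from these shares. Slc26a4, pendrin, the chloride-bicarbonate and iodide exchanger of type B intercalated cells, measured -0.20, -0.997 and -0.45 in brain and 3.90, 3.77 and 3.90 in kidney, while liver gave 0.10 and -0.07. Kidney was above brain by 4.40 ± 0.12 (SE, adjusted p = 1.76e-07, limma) and above liver by 3.97 ± 0.14 (SE, adjusted p = 1.43e-06, limma). Slc26a1, the sulfate and oxalate exchanger of the basolateral tubule and hepatocyte membrane, measured -1.18, -1.34 and -1.26 in brain and 3.72, 3.64 and 3.57 in kidney, while liver gave 3.13 and 3.17. Kidney and liver did not overlap but differed by under 1, and both lay above brain, kidney by 4.90 ± 0.06 (SE, adjusted p = 8.44e-09, limma). Slc26a6, which exchanges chloride for oxalate at the apical membrane of the proximal tubule, measured 0.43, 0.45 and 0.47 in brain and 0.76, 0.83 and 1.28 in kidney, while liver gave -0.09 and -0.35. Its kidney minus liver difference of 1.21 ± 0.17 (SE, adjusted p = 0.000835, limma) was called, and fell to 0.97 and 0.94, under the size asked for, without the high-dose kidney or the high-dose liver array. Slc26a2, the widespread sulfate carrier, was called in no contrast by its reported probe, which was higher in kidney than in brain by 0.93. Another Slc26a2 probe was called, higher in kidney than in brain by 1.08 ± 0.15 (SE, adjusted p = 0.000544) and than in liver by 1.17 ± 0.18 (SE, adjusted p = 0.00130), in the limma fit over all probes.

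The exchangers' partners in acid handling are read beside the 24.3% of all genes higher and 23.3% lower in kidney than in brain, and the 16.3% higher and 16% lower in kidney than in liver. Genes of the carbonic anhydrase family were higher in kidney than in brain for 10 of 15 tested and lower for 2. The largest differences were those of Car3 at 8.29 ± 0.32 (SE, adjusted p = 8.05e-07, limma) and Car11 at -6.31 ± 0.16 (SE, adjusted p = 1.40e-07, limma). The family's median difference was 2.01 against brain, and against liver it was -0.10, with 6 higher and 4 lower in kidney. Vacuolar proton pump subunits were higher in kidney than in brain for 9 of 25 and lower for 3, with a median of 0.06, below the 0.15 of all genes. Against liver, 13 of the 25 were higher in kidney and 1 was lower, with a median of 1.03. Intercalated cell markers were higher in kidney than in brain for 10 of 12 and lower for 1.

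Promoters of 29 members matched the RefSeq table (GRCm38.p6), and 4 are shown for members with large tissue differences. Each run is the 250 bases before the annotated start, read along the gene. Capitals mark TATAAA or GGGCGG on either strand, so the other strand reads TTTATA or CCGCCC, and no match overlaps another here. In GRCm38.p6 the Slc8a2 promoter, of a gene measured in brain alone, is chr7:16129576-16129825 (plus strand). That of Slc4a10, the first of 2 listed, is chr2:62046265-62046514 (plus strand). That of Slc9a3 is chr13:74121163-74121412 (plus strand), and that of Slc26a4 is chr12:31559985-31560234 (minus strand).
Slc8a2: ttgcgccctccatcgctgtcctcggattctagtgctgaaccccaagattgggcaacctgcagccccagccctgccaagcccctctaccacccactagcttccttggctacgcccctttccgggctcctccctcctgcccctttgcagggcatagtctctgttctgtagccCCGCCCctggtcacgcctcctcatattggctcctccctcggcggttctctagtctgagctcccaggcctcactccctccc
Slc4a10: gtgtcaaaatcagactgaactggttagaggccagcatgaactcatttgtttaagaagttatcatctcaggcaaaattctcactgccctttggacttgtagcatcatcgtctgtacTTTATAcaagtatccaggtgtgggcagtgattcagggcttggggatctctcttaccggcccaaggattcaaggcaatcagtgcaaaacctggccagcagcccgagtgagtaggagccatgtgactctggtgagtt
Slc9a3: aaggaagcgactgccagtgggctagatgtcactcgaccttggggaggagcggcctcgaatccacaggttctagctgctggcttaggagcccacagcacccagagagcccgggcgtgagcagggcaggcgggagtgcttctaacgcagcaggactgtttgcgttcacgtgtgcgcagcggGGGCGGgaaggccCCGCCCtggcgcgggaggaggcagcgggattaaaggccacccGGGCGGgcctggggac
Slc26a4: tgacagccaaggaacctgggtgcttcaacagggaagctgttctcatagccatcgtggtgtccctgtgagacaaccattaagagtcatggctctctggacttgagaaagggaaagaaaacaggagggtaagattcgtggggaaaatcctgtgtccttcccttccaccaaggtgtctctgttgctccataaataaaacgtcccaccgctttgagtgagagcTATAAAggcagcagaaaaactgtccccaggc
TATAAA lay 31 to 26 bases before the start in Slc26a4 on the gene's own strand and 135 to 130 bases before it in Slc4a10 on the other. The Slc9a3 promoter held 3 GGGCGG matches and 19 CpG dinucleotides, and that of Slc8a2 held 1 match and 9 CpG. Of the 29 members, 20.7% had TATAAA and 41.4% GGGCGG in the first listed promoter, beside 12.97% and 32.9% of 27025 promoters of the same length. The median CpG count was 9 in members and 6 in all promoters. These are matches of letters, and no binding was measured.

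For the doses, each comparison set 1 array against 1 array, so no test was possible. The size rule asked for a log2 difference of at least 1, for more than 3 times the array error, and for a probe that was well above background and unsaturated on both arrays. The array error combines the scanner software's errors of both signals. The comparisons of a tissue share arrays. In kidney at the high dose 1 of 26 measured members was higher (Slc4a11) and 1 lower (Slc26a7), where 1.12% and 0.539% of all measured genes were (1.66% either way). Between the high and low dose in kidney 1 of 27 was higher (Slc4a11) and 0 lower, where 0.842% and 0.239% were (1.08% either way). Between the high and low dose in brain 1 of 30 was higher (Slc9b1) and 0 lower, where 0.311% and 0.738% were (1.05% either way). No member was past the rule in the low-dose brain (0 of 29, where 0.441% of genes were higher and 0.304% lower, 0.745% in all) or the high-dose brain (0 of 32, where 0.202% and 0.25% were, 0.452% in all). Likewise 0 of 26 were past it in the low-dose kidney (0.22% and 0.272% of genes, 0.492% in all) and 0 of 19 in the high-dose liver (0.344% and 0.459%, 0.804% in all). Normexp with quantile normalization moved the share of higher genes among those past the rule in high-dose kidney from 67.5% to 84.4%. Counts of 0, 1 or 2 do not set the members apart from these shares. The members' median difference from control was -0.02 in low-dose and -0.01 in high-dose brain, -0.03 in low-dose and 0.10 in high-dose kidney, and -0.02 in liver. The median of all genes in these comparisons lay between -0.027 and -0.002. In high-dose kidney 76.9% of measured members lay within 0.5 of control, beside 91.7% of genes.

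**Figure D4:**
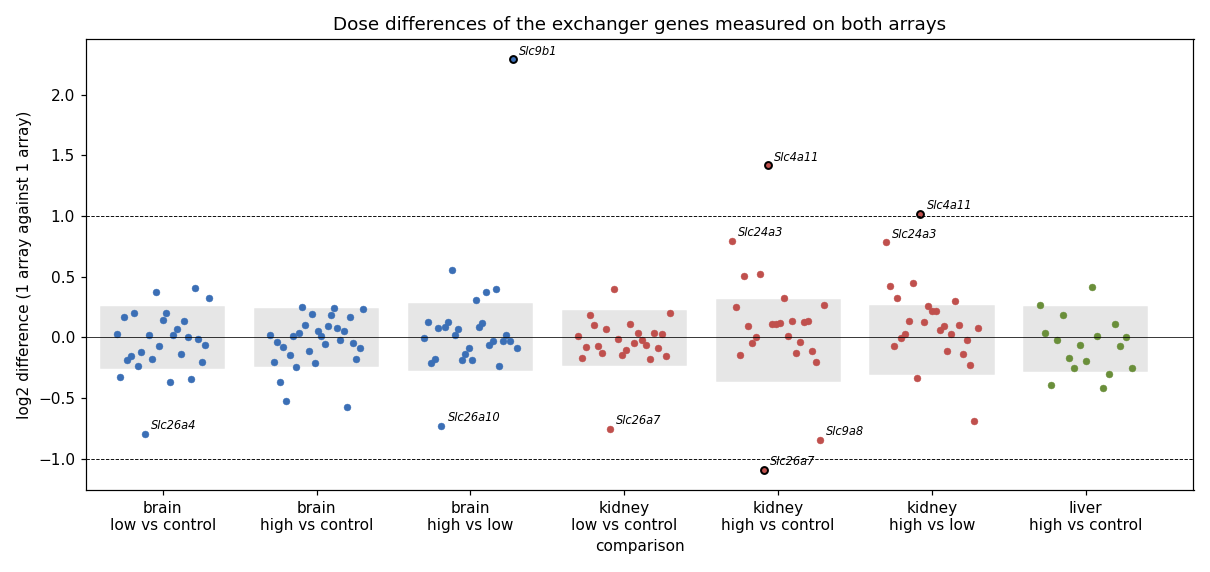
Each point is the log2 difference of an exchanger gene between 2 arrays (vertical axis), for the 7 comparisons of doses (horizontal axis), over the drawn members that both arrays measured. Dashed lines mark a difference of 1, points with a black rim are past the size rule, and grey boxes span the median of all measured genes plus and minus their SD. Slc4a11, Slc26a7 and Slc9b1 are the genes past the rule, and most others lie within the grey boxes.

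Slc4a11 was the member with the largest difference in the high-dose kidney. Its kidney levels, given above, were lowest in control at 0.06, 0.46 at the low dose and highest at the high dose, at 1.48. The high dose exceeded control by 1.42 (array error 0.20), which is 2.67-fold, and the low dose by 1.02, while the low dose exceeded control by 0.40 (array error 0.20). The difference between the doses was at the edge of the rule, and was 0.98 with median scaling, 0.96 with normexp and quantile normalization and 0.91 as the mean of the probes. The junction-spanning probe shown above measured -4.44 in control kidney, where it was not well above background, -3.77 at the low and -2.97 at the high dose, a level at least 2.78-fold above control. In brain the gene's differences from control were 0.38 and 0.19, and in liver it was not measured.

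Slc26a7, an anion exchanger of acid-secreting intercalated cells, had lower levels in both lead-treated kidneys, past the rule at the high dose alone. It measured -3.09 in control, -3.85 at the low and -4.18 at the high dose in kidney. In brain it measured -4.56, -4.96 and -4.31 and in liver -4.89 and -5.73, of which the low-dose brain and both liver values were not well above background. The high dose was 2.13-fold below control (-1.09, array error 0.31), and the low dose differed by -0.75. Its second probe was not well above background on any array. With background correction by normexp and quantile normalization the high-dose difference was -0.53 and no longer past the rule, and a stricter filter on dim probes also ended the call.

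Other members in kidney did not reach the rule. Just outside it lay Slc9a8 at -0.85 and Slc24a3 at 0.79 for the high dose against control, and just inside it Slc4a11 at 1.02 for high against low dose and Slc26a7 at -1.09. Slc9a8 had 6 probes, and the 5 measured in both control and high-dose kidney were all lower at the high dose, by -0.91 to -0.10. The junction-spanning Slc9a8 probe shown above measured -1.04 in control, -1.41 at the low and -1.95 at the high dose. Against the low dose the same count was 5 of 5, from -0.69 to -0.24. Between the low dose and control the Slc9a8 probes differed in direction, with 5 of 6 lower and 1 higher at the low dose, from -0.37 to 0.18. For Slc26a6 3 of 3 probes were higher at the high dose than in control, by 0.51 to 0.86. Probes of 1 gene share its transcripts and are not replicates. The apical exchanger Slc9a3 and pendrin, Slc26a4, were not past the rule in high-dose kidney, Slc9a3 at 3.47 against 3.33 in control and Slc26a4 at 3.90 on both arrays. The junction-spanning Slc9a3 probe was 0.44 above control (array error 0.22). Slc4a4, the basolateral carrier of the same cells as Slc9a3, differed by -0.03 to 0.18 over its 3 measured probes.

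Cell markers of the kidney arrays are read beside the shares of all genes past the rule. These were 1.12% higher and 0.539% lower at the high dose, and 0.22% and 0.272% at the low dose. Intercalated cell markers were past the rule for 0 of 12 in the high-dose kidney, 11 of 12 lay above control (median 0.15, range -0.16 to 0.50), and their summed level was 5.26 against 5.17. Proximal tubule markers were past it for 0 of 12 (median -0.09). Thick ascending limb markers were past it for 0 of 7, and 6 of 7 lay above control (median 0.30, summed level 8.52 against 8.19). Principal cell markers were higher for 1 of 8 (Elf5 at 1.33, summed level 5.22 against 4.95), bile duct markers for 1 of 6 measured (Krt19 at 1.16, summed level 5.38 against 4.97), and fat markers were lower for 1 of 7 (summed level 2.68 against 3.38). Urothelium markers were higher for 2 of 3 measured (summed level 0.83 against -0.63) and, at the low dose, for 3 of 3 (0.84 against -0.63). Adrenal cortex markers were lower for 2 of 4 measured at both doses, with summed levels of 2.22 in control, 0.05 at the low and -0.05 at the high dose. Hepatocyte markers were higher for 4 of 9 measured at the high dose, with a summed level of 7.47 against 7.87. Spermatid markers were higher for 7 of 7 measured at the high dose (summed level 4.33 against 1.38). The part of these cells in the values of Slc4a11, Slc26a7 and Slc9a8 was not tested.

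Slc9b1, a sperm sodium-proton exchanger, was the member past the rule in brain. Its reported probe measured -4.73 in control, where it was not well above background, -4.55 at the low and -2.26 at the high dose. In kidney, at -5.28, -6.28 and -4.78, and in liver, at -5.92 and -5.97, it was not well above background. The high-dose brain was the array that stood out. The high dose exceeded the low dose by 2.29 (array error 0.33), which is 4.90-fold, and was at least 5.57-fold above control. With a stricter filter on dim probes the comparison of the doses was no longer counted. The other 3 Slc9b1 probes were not well above background on any array, and the adjacent gene Slc9b2 differed by -0.09 between those doses. Beside this, spermatid markers on the high-dose brain array were past the rule for 4 of 4 measured (summed level 3.41 against -0.70 in control and -0.81 at the low dose), led by protamine Prm1, which measured 2.42 against -3.12 in control. Of all genes, 0.202% were higher by the rule in high-dose brain than in control. On the high-dose kidney array, where spermatid markers were also higher, Slc9b1 was not well above background. Slc26a8, an anion exchanger of sperm, was flat in brain by its second probe, at -3.94, -4.08 and -3.86. The part of spermatid RNA in the value of Slc9b1 was not tested.

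The remaining brain differences were small. Slc26a4 in low-dose brain lay furthest from control there, at -0.79 (array error 0.21). Slc4a10, a carrier also found in choroid plexus, measured 1.80, 1.62 and 1.69 in control, low-dose and high-dose brain. Choroid plexus markers were lower for 7 of 11 in high-dose brain (median -1.61, summed level 4.09 against 4.93), where 0.25% of all genes were. The part of choroid plexus cells in the values of Slc4a10 was not tested. In low-dose brain striatum markers were higher for 11 of 11 (median 1.63, summed level 7.61 against 5.99) and hippocampus markers lower for 4 of 8. Of all genes there, 0.441% were higher and 0.304% lower. By their reported probes, the brain exchangers Slc8a2, Slc8a3 and Slc24a2 stayed within 0.14 between all 3 brain arrays. The second Slc8a3 probe was 0.65 above control at the low dose, and the Slc24a2 probes differed by at most 0.17 between any 2 brain arrays.

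Some differences showed in a probe other than the reported one. A second Slc4a4 probe measured -3.67, -2.70 and -3.86 in control, low-dose and high-dose brain, so that high minus low dose was -1.17, while the reported probe gave -0.19. A junction-spanning Slc4a8 probe measured -2.95, -2.06 and -3.71 in kidney, so that high minus low dose was -1.65, while the reported probe gave 0.06. In liver 3 Slc8a1 probes were well above background in control and not at the high dose, at levels at least 3.09-fold, 2.33-fold and 1.33-fold apart. A second Slc26a10 probe was at least 3.54-fold higher in high-dose liver, while the reported one differed by -0.39. These probes were singled out after their values were seen, as were those of Slc4a9, Slc8a1 and Slc9a8.

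The partner lists were counted by the same size rule. In high-dose kidney, 0 of 12 measured carbonic anhydrases, 0 of 25 vacuolar proton pump subunits, 0 of 8 calcium pumps, 0 of 6 kidney calcium channels and binders, 0 of 17 chloride channels and carriers, 0 of 14 exchanger regulators, 0 of 1 proton-potassium pumps and 0 of 2 ammonium transporters were past the rule. The largest differences among carbonic anhydrases, calcium pumps, calcium channels and binders, and regulators were 0.47 for Car14, a membrane carbonic anhydrase, 0.39 for the calcium pump Atp2b3, 0.23 for the calcium receptor Casr and 0.27 for the kinase Sgk1. The proton pump subunits lay above control for 21 of 25, with a median of 0.06 and Atp6v1b1 of intercalated cells at 0.50. In the other comparisons the same lists had 0 members past the rule, except for the lysosomal chloride carrier Clcn6 at -1.04 in high-dose liver. Of all genes, 1.66% were past the rule either way in high-dose kidney and 0.452% to 1.08% in the other comparisons. Counts of 0 or 1 do not set these lists apart from such shares.

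An effect of lead common to the tissues was tested for the 17449 genes that every array measured, 19 of them members. Liver had no low-dose array, so the low-dose term covers the low dose of brain and kidney alone. The limma fit called 0 members and 0 genes (0%) for the high dose and likewise for the low dose. At an unadjusted p under 0.05 it had 0 of 19 members and 1181 genes (6.77%) for the high dose. For the low dose it had 1 of 19 members, Slc26a4, and 421 genes (2.41%). Counts of 0 and 1 do not set the members apart from these shares. The smallest adjusted p of a member was 0.689 for the high and 0.9999 for the low dose.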

How the data were processed

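RNA of each sample was hybridised to a 1-colour Agilent mouse array, and the deposited scanner files give probe intensity values, background-subtracted per the file headers. The submitters' processing notes name the scanner software as Agilent Feature Extraction, version 12.0.3.1. The deposited value table held the same intensity divided by each array's 75th percentile (ratio of both 0.9997 to 1.0000, column medians 0.0905 to 0.114), and its log2 served as an alternative.

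Here log2 intensity was centred on each array's 75th percentile over non-control probes, with outlier spots left out and spots of a probe averaged. The probe with the highest mean level stood for its gene. RefSeq (GRCm38.p6) named 32994 of 56605 probes by accession, changing 1535 names and no member's, and 23611 kept the file's name. Probe positions are mm9 and were not combined with GRCm38.p6 coordinates.

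Tissues and shared dose effects were tested with limma 3.58.1 (R 4.3.3, tissue plus dose, intensity trend, 3 residual degrees of freedom) and Benjamini-Hochberg adjustment. Calls were made at adjusted p under 0.05 and, for tissues only, a difference of at least 1. The scripts (Python 3.11.15) were tested on simulated data. P-values measure the spread between these arrays, since the labels name no separate animals, and the number of arrays limits the precision. Named in full were members past the size rule or with a bound of at least 2-fold on 1 array, and the most expressed member of each role group in any tissue. The members and gene lists were chosen with earlier results of these data known. Values of 2 members, counted among the 38, are not reported here or drawn.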

Additional observations from a re-analysis of the deposited data

How the results depend on the processing

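No paired analysis was possible because each group holds 1 array and every array has the same replicate number. The tissue fit carries dose as a term, and without it the calls numbered 23 for kidney against brain, 16 for kidney against liver and 21 for brain against liver, as with it. Whether tissues of 1 dose came from the same animals is not given in the labels. With a 1.5-fold threshold, the members past the size rule numbered 1 in low-dose brain (Slc26a4), 2 between brain doses (Slc9b1 and Slc26a10), 4 in high-dose kidney (with Slc9a8 and Slc24a3 added) and 3 between kidney doses. The share of all genes past this looser threshold was not counted, so these counts do not set the members apart. Without the filter on dim probes, high-dose brain had 1 (Slc9b1). The stricter filter left 0 between brain doses and 1 in high-dose kidney. Normexp with quantile normalization left 1 in high-dose kidney and 0 between kidney doses, and median scaling and the mean of probes each left 0 there. The counts of tissue calls stayed within 1.5 times under every alternative, among them a fit over all probes chosen after seeing the data. Leaving out 1 array in turn gave 23 to 25 calls for kidney against brain, 15 to 17 for kidney against liver, 21 to 22 for brain against liver and 0 for both shared dose effects. Of 60 tissue calls of members, 54 held in all 15 alternatives, 6 were lost in at least 1 and 0 reversed. Those lost were Slc9a7, Slc26a6 and Slc26a7 for kidney against liver and Slc9a5, Slc9a8 and Slc24a5 for brain against liver. The Slc9a7 difference was 1.10, and 0.91 without the control kidney and 0.60 without the control liver. With 1 array per group, differences between doses have no replicate check, and probes near background give bounds only.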
